A study of Homo sapiens with 6 samples.

Results

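The genes of the ligands of NKG2D were examined for chromatin accessibility in human neural progenitor cells (NPCs). The set held 8 of the 20033 protein-coding genes on the chromosomes of human genome build hg38: *ULBP1*, *ULBP2*, *ULBP3*, *RAET1E*, *RAET1G*, *RAET1L*, *MICA* and *MICB*. The family was selected because *ULBP2* had a called peak at its start in 2 of the 3 peak lists, those of WT NPCs and of dKO NPCs with BAF53B, and none in the list of dKO NPCs. Which list held a peak at a ligand gene therefore served to choose the set, and all values below are descriptions of these lists.

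NKG2D is an activating receptor on natural killer (NK) cells and on some T cells. Its ligands are surface proteins related to MHC class I molecules that most healthy cells carry at low levels and that appear under DNA damage, infection, transformation or proteotoxic stress, so that a stressed cell can be recognised and killed. *MICA* and *MICB* lie in the MHC, next to *HLA-B*, whereas the *ULBP* and *RAET1* genes form a separate cluster at the other end of chromosome 6, where paralogs and pseudogenes alternate.

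ATAC-seq marks open chromatin by the adaptors that the Tn5 transposase leaves in it, and had been performed on 6 samples in 3 groups of 2 replicates. By the sample titles all cells were NPCs, and all were grown from the H1 human embryonic stem cell line. The WT group carried no engineered allele. In the dKO group the catalytic domains of UTX (gene *KDM6A*) and JMJD3 (gene *KDM6B*) had been deleted with Cas9, guide RNAs and a donor cassette. Both proteins are demethylases of the repressive mark H3K27me3. According to the study's methods the JMJD3 knock-out line was made first and its puromycin cassette was removed with Cre. The UTX domain was then deleted in that line. Mutant cells were therefore clonal derivatives of 1 parental line, and a clone effect and the deletions cannot be told apart. The BAF53B group had the same deletions and in addition a lentivirus expressing BAF53B, which *ACTL6B* encodes and which belongs to the chromatin remodelling BAF complex of neurons. No dKO sample with an empty virus was among the 6, so the virus and BAF53B cannot be told apart either. WT and dKO NPCs were at an early passage in the study's description, and the passage of the BAF53B cells is not given in the sources used here. The study's legend for ATAC-seq with BAF53B names differentiated cells, so the NPC stage of this group rests on the sample titles.

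The 2 replicates of a group shared 1 list of peaks, so no value below has a replicate error and no test was made. A difference between the lists compares pooled libraries. The lists held 7880 peaks in WT, 25439 in dKO and 16948 with BAF53B. Their genome background, the number of fragments that would cover a base if all fragments were spread evenly and thus a measure of depth, was 6.33, 6.81 and 6.78, so that dKO and BAF53B were 1.08-fold and 1.07-fold deeper than WT. The list length therefore varied far more than the depth, and the calls at the ligand genes are given below also with lists of equal length. Of 8 NPC marker genes, WT had a promoter peak at 2 (*HES1* and *VIM*), dKO at 6 (these and *SOX1*, *SOX2*, *FABP7* and *CDH2*) and BAF53B at 5 (all of the 6 but *SOX2*). *NES* and *PAX6* had none in any list, and neither had the pluripotency genes *POU5F1* and *NANOG*. *POU5F1* lies in the stretch around *MICA* and *MICB* without any called peak, described below, so its missing peak gives no reading. The WT list thus had the fewest peaks and the fewest marker peaks at nearly the same depth. Of all 20033 coding genes, 28.2% were called by the WT list, 45.0% by the BAF53B list and 56.4% by the dKO list. The markers followed the same order, so their counts are no sign beyond the list lengths. Whether library quality or a mix-up of labels has a part in the short WT list was not tested. Each comparison of WT with dKO below rests on the labels as given.

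The promoters of the 4 ligand genes with a peak are shown first, because the peak summits fell inside or directly beside these bases and because the paralogs can be compared by eye. Each sequence is the 250 bases before the start of the gene on its own strand, 5′ to 3′, from the RefSeq annotation of GRCh38.p14, which has the same bases as hg38 there. Capitals mark matches, on either strand, to the GC box GGGCGG or to CCAAT. The positions are chr6:149941764-149942013 on the plus strand for *ULBP2*, chr6:149923122-149923371 on the minus strand for *RAET1G*, chr6:149963693-149963942 on the plus strand for *ULBP1* and chr6:150069122-150069371 on the minus strand for *ULBP3*.
ULBP2: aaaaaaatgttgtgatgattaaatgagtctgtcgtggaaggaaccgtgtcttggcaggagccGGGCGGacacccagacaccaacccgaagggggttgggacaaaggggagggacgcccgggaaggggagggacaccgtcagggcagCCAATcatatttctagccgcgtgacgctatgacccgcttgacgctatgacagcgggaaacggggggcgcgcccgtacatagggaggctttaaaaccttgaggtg
RAET1G: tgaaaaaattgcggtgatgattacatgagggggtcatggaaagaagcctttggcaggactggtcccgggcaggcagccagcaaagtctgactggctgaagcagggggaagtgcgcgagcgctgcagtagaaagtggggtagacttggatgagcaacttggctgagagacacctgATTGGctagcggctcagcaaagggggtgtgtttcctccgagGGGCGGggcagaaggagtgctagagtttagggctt
ULBP1: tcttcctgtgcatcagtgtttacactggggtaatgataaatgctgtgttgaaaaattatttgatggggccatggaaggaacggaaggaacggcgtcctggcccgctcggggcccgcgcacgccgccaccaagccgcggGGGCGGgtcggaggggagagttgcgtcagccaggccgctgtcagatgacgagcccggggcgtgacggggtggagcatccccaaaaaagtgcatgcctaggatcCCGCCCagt
ULBP3: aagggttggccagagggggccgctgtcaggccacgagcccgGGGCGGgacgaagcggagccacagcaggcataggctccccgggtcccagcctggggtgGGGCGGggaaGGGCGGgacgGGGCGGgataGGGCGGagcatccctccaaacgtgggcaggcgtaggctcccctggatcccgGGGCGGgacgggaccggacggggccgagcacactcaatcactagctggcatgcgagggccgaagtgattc

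All 8 genes were matched in RefSeq by symbol. GC boxes were present in 6 of the 8 promoters, against 53.7% of 22199 coding promoters of the same length, and CCAAT in 5, against 32.7%. The *ULBP3* promoter held 6 GC boxes, 4 of them spaced evenly between 151 and 116 bases before the start, and a GC content of 72.0%, the highest of the 8. The median of all coding promoters was 62.0%. *ULBP2* had 1 GC box from -188 to -183 and 1 CCAAT from -104 to -100 relative to the start, *RAET1G* a GC box from -35 to -30 and a CCAAT on the opposite strand from -76 to -72, and *ULBP1* GC boxes from -112 to -107 and from -9 to -4. The other motifs searched were TATAAA, the AP-1 motif TGANTCA, the cyclic AMP element TGACGTCA, the ATF4 composite TGATGCAA, the heat shock core GAANNTTC, the NF-kB-like GGANTTCC and the E-box CACGTG. None of these had a whole match in the printed windows. Among the 4 ligand genes without a peak, TGANTCA was found in *RAET1L* (5.36% of all promoters), CACGTG in *RAET1E* (7.37%) and GAANNTTC in *MICA* and *MICB* (4.90%). TATAAA (9.01%), TGACGTCA (2.01%), TGATGCAA (0.595%) and GGANTTCC (4.26%) matched none of the 8. Each palindromic motif was counted once for both strands, and none of the motifs was contained in another.

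Pairwise alignment of the windows showed how far the copies had diverged. *MICA* and *MICB* shared 84.0% of 250 bases. The closest pair in the cluster, *ULBP2* and *RAET1G*, shared 62.4%, which was little more than the 60.0% between *RAET1E* and *MICA*, genes of the 2 different branches of the family. The ligand promoters with a peak thus had no near-identical copy among the other members in this window.

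*ULBP2* encodes a GPI-anchored ligand and was the gene on which the family was chosen. The gene (ENSG00000131015.5) runs from 149942014 to 149949235 on the plus strand of chromosome 6. In WT NPCs a peak of 566 bp from 149941568 to 149942133 covered its start, with the summit at -50 bp from the start. In the BAF53B list a peak of 675 bp from 149941633 to 149942307 covered the same bases, with the summit at -77 bp. Both summits lay within the printed bases, between the CCAAT and the start. The dKO list had no peak within 3 kb, and its nearest summit was 18.8 kb away, at *RAET1G*.

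The fragment pileup at the *ULBP2* summit was 36 in WT and 36 with BAF53B, each with a 95% Poisson interval of 25.2 to 49.8. Such intervals are exact and cover counting error only. Over local backgrounds of 6.48 and 7.60 fragments the fold was 4.95 in WT (3.50 to 6.80) and 4.30 with BAF53B (3.05 to 5.91), so the intervals overlapped over most of their length. The fold, as deposited, is the pileup plus 1 over the local background plus 1. The −log10 q was 11.9 in WT and 10.3 with BAF53B. Among promoter peaks of its own list the *ULBP2* peak had a high rank in WT, at percentile 80.3 of 4512 by fold, and a middle one with BAF53B, at percentile 55.4 of 7400. In dKO a list entry sets no value, because bases under the calling threshold of −log10 q 5 are not listed. With the WT pileup and background scaled to the dKO depth, 38.7 fragments (27.1 to 53.6) would have been present and 26 were needed for a call. Scaled from the BAF53B list, 36.2 fragments (25.3 to 50.1) would have been present and 27 were needed, which lay inside that interval. Such scaling, here and below, adjusts for depth alone, and its interval holds the counting error of the called peak alone. The count in the list without a call has an error of its own, which was not included. The local background at *ULBP2* in dKO is not known. At the other 4 starts of the family with a dKO peak it was 10.8 to 11.4, where 33 to 34 fragments were needed, which lay inside both intervals. At such a background a lower level in dKO could not be told from counting error.

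A window of 100 bp on each side of both *ULBP2* summits held the CCAAT and a match to TGANTCA, the AP-1 motif, from 2 bases before to 4 bases after the first base of the gene. Only its first 2 bases are in the printed window, and the match was therefore not counted there. TGANTCA was found in the same window of 7.31% of all WT peaks, 4.82% of dKO peaks and 10.0% of BAF53B peaks.

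*RAET1G* (ENSG00000203722.8, chromosome 6, 149916878 to 149923121, minus strand) encodes ULBP5. It had a peak in dKO and with BAF53B and none in WT. In dKO the peak spanned 149922593 to 149923411 with the summit at -65 bp from the start, a pileup of 41 (29.4 to 55.6), a local background of 10.9 and a fold of 3.53 (2.56 to 4.76). With BAF53B it spanned 149922967 to 149923601 with the summit at -123 bp, a pileup of 52 (38.8 to 68.2), a background of 10.3 and a fold of 4.68 (3.51 to 6.10). It was the ligand promoter with the highest −log10 q, 16.5 with BAF53B against 9.19 in dKO, although the intervals of the pileup overlapped. In WT 33 fragments were needed where the dKO peak scaled to 38.1 (27.3 to 51.7), and 32 where the BAF53B peak scaled to 48.6 (36.3 to 63.7). The first lay inside the interval and the second below it, and neither interval holds the counting error of WT.

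*ULBP1* (ENSG00000111981.5, chromosome 6, 149963943 to 149973715, plus strand), a GPI-anchored ligand, had a peak in the dKO list alone. It spanned 149963707 to 149964187, and its summit lay 2 bp after the first base, in exon 1. The pileup was 39 (27.7 to 53.3) over a background of 11.2, which gave a fold of 3.29 (2.36 to 4.46) and a −log10 q of 7.78. This was the weakest peak at a ligand promoter and the one nearest to the calling threshold. Scaled to WT it gave 36.2 fragments (25.8 to 49.6) where 34 were needed, and scaled to BAF53B 38.8 (27.6 to 53.0) where 34 were needed. At *ULBP1* neither absence could be told from counting error at this depth. The window of 100 bp on each side of the *ULBP1* summit held overlapping matches to TATAAA, from 34 to 39 and from 36 to 41 bases after the start. These lie beyond the printed bases, and TATAAA was found in the same window of 3.07% of all dKO peaks.

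*ULBP3* (ENSG00000131019.11, chromosome 6, 150061053 to 150069121, minus strand), also GPI-anchored, had the strongest peak of the ligand promoters in dKO and none in the other 2 lists. The dKO peak spanned 150068935 to 150069471, with the summit at -112 bp from the start, beside the 4 evenly spaced GC boxes printed above. The pileup was 52 (38.8 to 68.2) over a background of 11.4, the fold 4.26 (3.20 to 5.56) and the −log10 q 15.1. A call needed 34 fragments in WT, where the peak scaled to 48.3 (36.1 to 63.4), and 35 with BAF53B, where it scaled to 51.7 (38.6 to 67.8). Both needs lay below the interval, which leaves out the counting error of the list without a call. The scaling also adjusts for depth alone. Of the 5363 coding genes called in all 3 lists, 80.6% had their highest fold in dKO, 15.0% with BAF53B and 4.44% in WT. At *RAET1K*, described below, the pileup was 64 in dKO, 49 with BAF53B and 30 in WT. Whether the missing calls at *ULBP3* go beyond such differences between the lists was not tested.

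**Figure D1:**
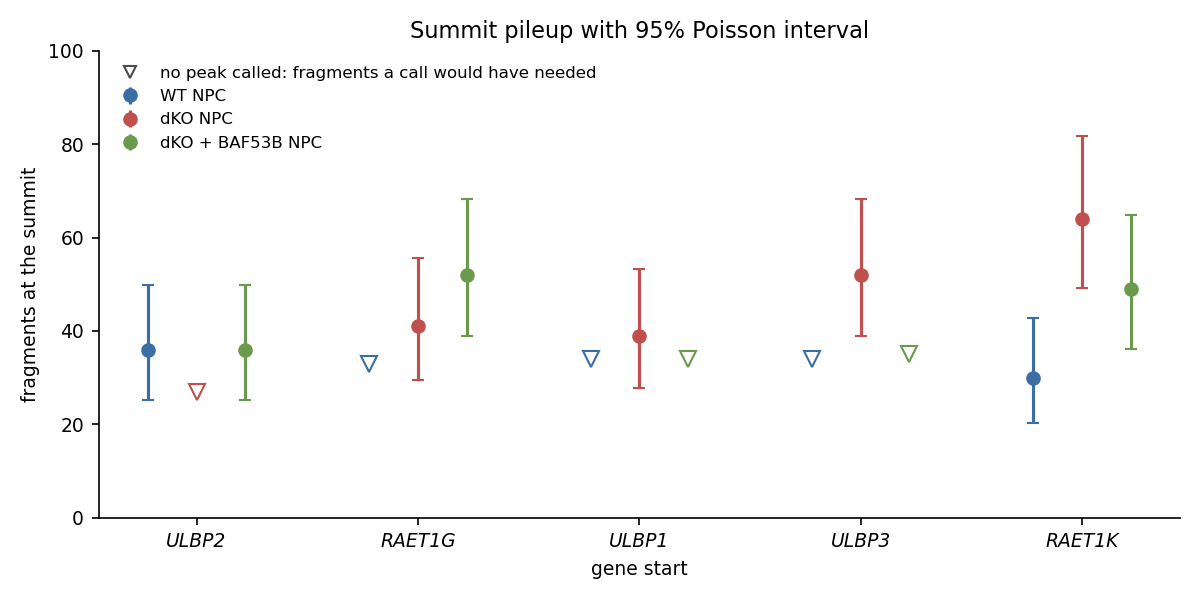
Fragments at the summit (vertical axis) of the peaks at 4 ligand gene starts and at the start of the pseudogene *RAET1K*, by list; points are called peaks with 95% Poisson intervals and open triangles mark lists without a peak, at the larger number of fragments a call would have needed. *ULBP2* had 36 fragments in WT and with BAF53B, *ULBP3* 52 in dKO alone, and all 3 lists had a peak at *RAET1K*.

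The other 4 ligand genes had no promoter peak in any list. *RAET1E* (ENSG00000164520.12, chromosome 6, 149883179 to 149898113, minus strand) encodes ULBP4, and its nearest summit was 20.5 kb away, in dKO. *RAET1L* (ENSG00000155918.8, chromosome 6, 150018334 to 150025532, minus strand) encodes ULBP6, and its nearest summits, 20.2 to 20.3 kb away, were those at *RAET1K* in all 3 lists. *MICA* (ENSG00000204520.14, chromosome 6, 31399784 to 31415315, plus strand) and *MICB* (ENSG00000204516.10, chromosome 6, 31494881 to 31511124, plus strand) encode transmembrane ligands, and no summit was within 2003 kb of the *MICB* start or 2098 kb of the *MICA* start in any list. Inside the gene bodies no further peak was called: every peak that overlapped a ligand gene was the one at its start.

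Counted over the family, the WT list called 1 of the 8 ligand promoters, against 28.2% of all 20033 coding genes. The dKO list called 3 of the 8, against 56.4%, and the BAF53B list 2 of the 8, against 45.0%. The order of the lists was the same in the family as in the genome, and the family was chosen by these calls. With only peaks of a −log10 q of at least 10 kept, or with all lists cut to the length of WT, dKO called 1 of the 8, *ULBP3*, and no longer *ULBP1* and *RAET1G*, whereas the calls of WT and BAF53B stayed at *ULBP2* and at *ULBP2* and *RAET1G*. The pattern of *ULBP2*, a peak in WT and with BAF53B but not in dKO, was shared by 34 genes or 0.170% of those tested. The pattern of *RAET1G*, dKO and BAF53B but not WT, was that of 16.2% of genes. The pattern of *ULBP1* and *ULBP3*, dKO alone, was that of 12.4%, and the pattern of the 4 without a peak was that of 41.3%. Between WT and dKO, *ULBP2* was thus called in WT alone and 3 of its paralogs in dKO alone, and these same calls had served to choose the family.

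The cluster was then read as a whole, from 50 kb before *RAET1E* to 50 kb beyond *ULBP3* (chromosome 6, 149833179 to 150119121). It held 2 peaks in WT, 7 in dKO and 5 with BAF53B, or 6.99, 24.5 and 17.5 peaks per Mb, where the whole genome had 2.55, 8.24 and 5.49. The genome rates count the full length of the chromosomes, whereas the cluster was chosen around genes. The WT rate rests on 2 peaks, among them the *ULBP2* peak by which the family was chosen. The peaks of the cluster fell into 9 regions. Of these, 4 were called in dKO alone, 2 in dKO and with BAF53B, and 1 in WT and with BAF53B. The others were 1 region called with BAF53B alone and 1 called in all 3 lists. *ULBP2* was the single region called in WT and not in dKO.

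The region open in all 3 lists was no ligand gene but the start of *RAET1K*, an annotated pseudogene of the family between *ULBP1* and *RAET1L*. Its summit lay at -161 bp from the annotated start in WT, at -99 bp in dKO and at -166 bp with BAF53B. The pileup was 30 (20.2 to 42.8) in WT, 64 (49.3 to 81.7) in dKO and 49 (36.3 to 64.8) with BAF53B, and the fold 3.48 (2.39 to 4.92), 5.49 (4.25 to 6.98) and 5.01 (3.73 to 6.59). The intervals of WT and dKO did not overlap for the pileup but did for the fold, and those of BAF53B overlapped both on either scale. This paralog, 63.1 kb from the start of *ULBP2*, had its highest pileup and fold in dKO. By fold, so did 80.6% of the 5363 coding genes called in all 3 lists.

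The remaining peaks lay outside the ligand genes. One in dKO (fold 3.76) and with BAF53B (3.41) covered the start of *LRP11*, a receptor-related gene upstream in the map, and lay in the antisense transcript *RAET1E-AS1*. A dKO peak at 149877490 to 149877734 lay 5.45 kb beyond the 3′ end of *RAET1E* with a −log10 q of 5.55. Another at 150057605 to 150057907 lay 3.15 kb beyond the 3′ end of *ULBP3* with 27 fragments and a −log10 q of 5.01, at the limit of calling. A BAF53B peak at 150080674 to 150080940 lay at -11.7 kb from the start of *ULBP3* with a −log10 q of 5.09. The peaks away from gene starts were thus those nearest to the threshold, each called in 1 list.

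**Figure D2:**
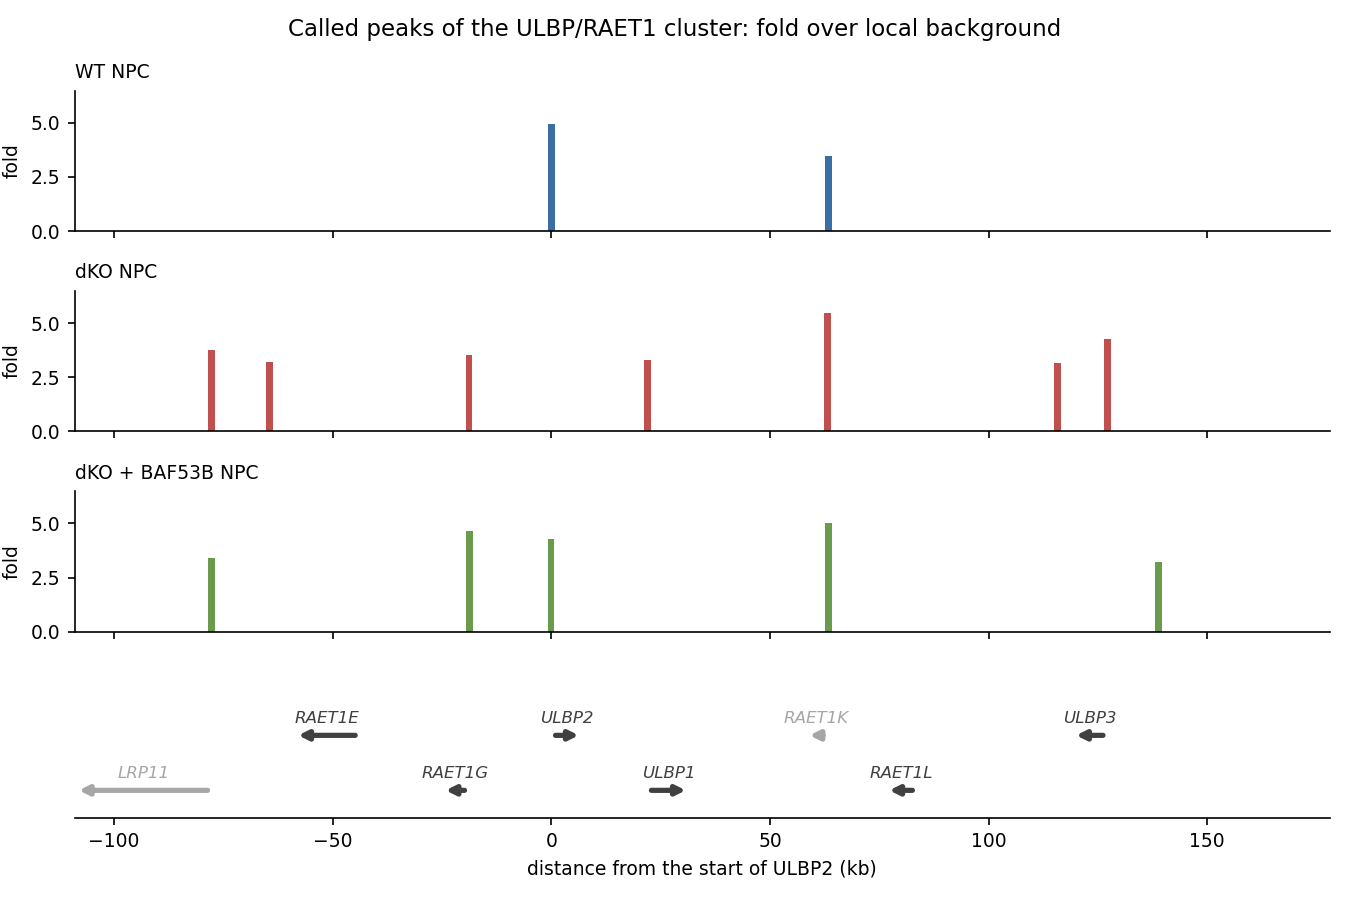
Called peaks of the *ULBP* and *RAET1* cluster in the 3 lists, plotted as fold over local background (vertical axes) against distance from the start of *ULBP2* in kb; arrows give the genes and their direction, with the pseudogene *RAET1K* and the neighbour *LRP11* (drawn in part) in grey. The WT list had peaks at *ULBP2* (4.95) and *RAET1K* (3.48), and the dKO list had 7 peaks, none of them at *ULBP2*.

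Because the members are paralogs, the promoter windows of 3 kb on each side were searched for stretches of 50 bases that occur again in the reference. In the cluster 10.1% of these stretches were found again on the primary chromosomes, from 1.34% at *RAET1E* and 2.44% at *RAET1G* to 18.8% at *RAET1L* and 21.0% at *ULBP2*, with 6.60% at *ULBP3* and 10.3% at *ULBP1*. None of the 14 peaks of the cluster held a repeated stretch (0% each). The *ULBP2* peaks, and the bases under them in dKO, were therefore unique at this length, although *ULBP2* had the most repeated window of the cluster.

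The MIC genes differed from the cluster here. Of the *MICA* window 96.8% and of the *MICB* window every stretch occurred also on alternate contigs, the additional haplotype sequences that some forms of the reference carry, against 0.106% for the windows of the cluster. A read that matches a primary chromosome and an alternate contig equally well has no unique place. Whether the authors' alignment included the 261 alternate contigs (109.5 Mb), and whether reads with several places were kept, is not given in the sources used here.

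Around the MIC genes no peak was called over 5.01 Mb in any of the 3 lists (chromosome 6, 28490264 to 33497818), from 2.91 Mb before *MICA* to 1.99 Mb beyond *MICB*. This stretch held the starts of 183 protein-coding genes. The genes beside *MICA* and *MICB* included *HLA-B*, *MCCD1*, *DDX39B*, *ATP6V1G2* and *NFKBIL1*. None of these had a peak, also not *DDX39B*, an RNA helicase gene that most cells use. Of the 183 genes, 180 had at least 50% of their promoter window on alternate contigs, with a median of 99.2%, where the median of all coding genes was 0.958%.

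**Figure D3:**
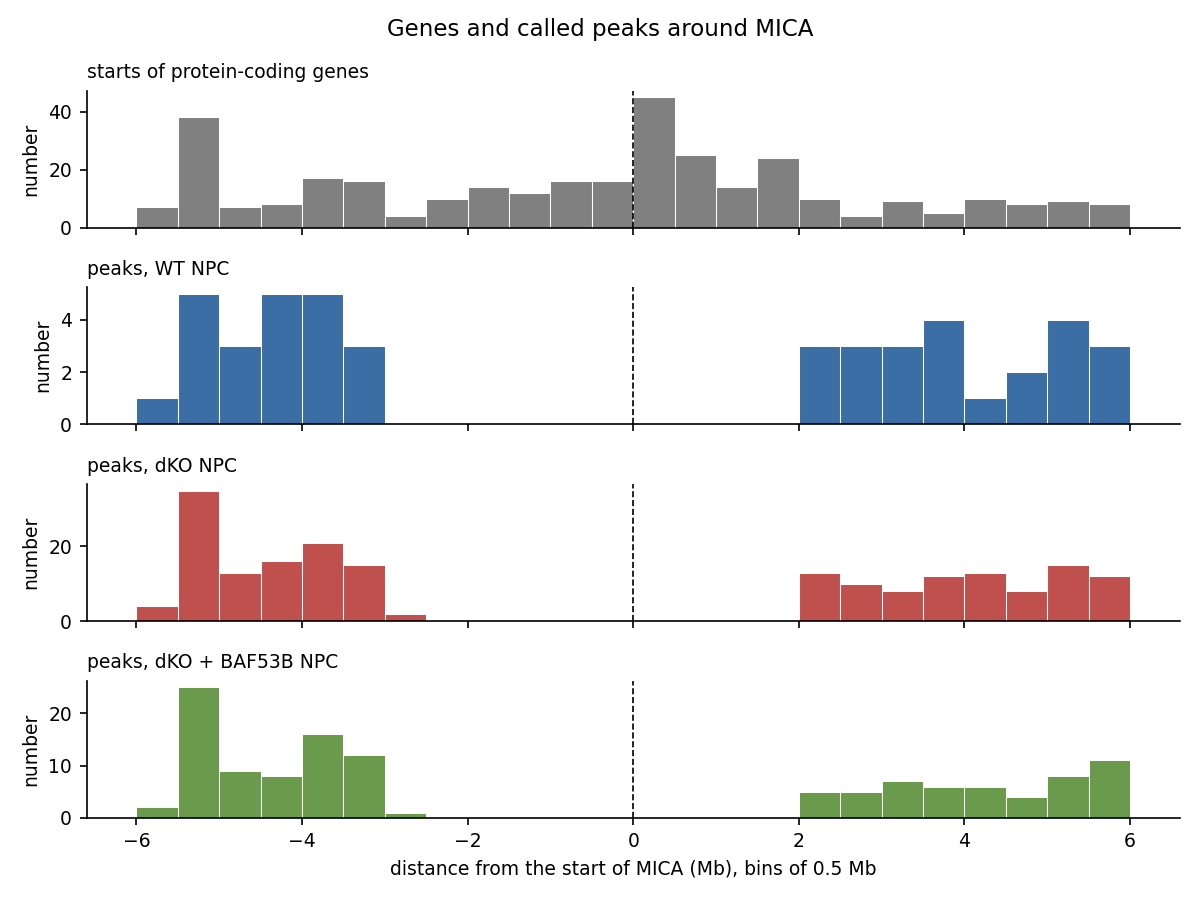
Starts of protein-coding genes (top) and called peaks of each list per 0.5 Mb, against distance from the start of *MICA* in Mb (dashed line). Genes are present throughout, and the peaks of all 3 lists stop before *MICA* and resume beyond *MICB*.

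The same held away from the MHC. Over the genome 812 coding genes had at least 50% of their promoter window on alternate contigs, and of these the WT list called 0, the dKO list 3 (0.370%) and the BAF53B list 1 (0.123%). Among the other 19221 genes the shares were 29.4%, 58.8% and 46.9%. Outside the stretch around the MIC genes, 632 genes had such windows, and the counts were again 0, 3 and 1. In the 707 genes with 90% or more, no list had a promoter peak. The missing peaks at *MICA* and *MICB* thus go with a property of the reference that is shared by genes of unrelated function, and its part in them was not tested. No level of accessibility can be read for *MICA* or *MICB* from these lists. For the 6 genes of the cluster this property was at or near 0.

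**Figure D4:**
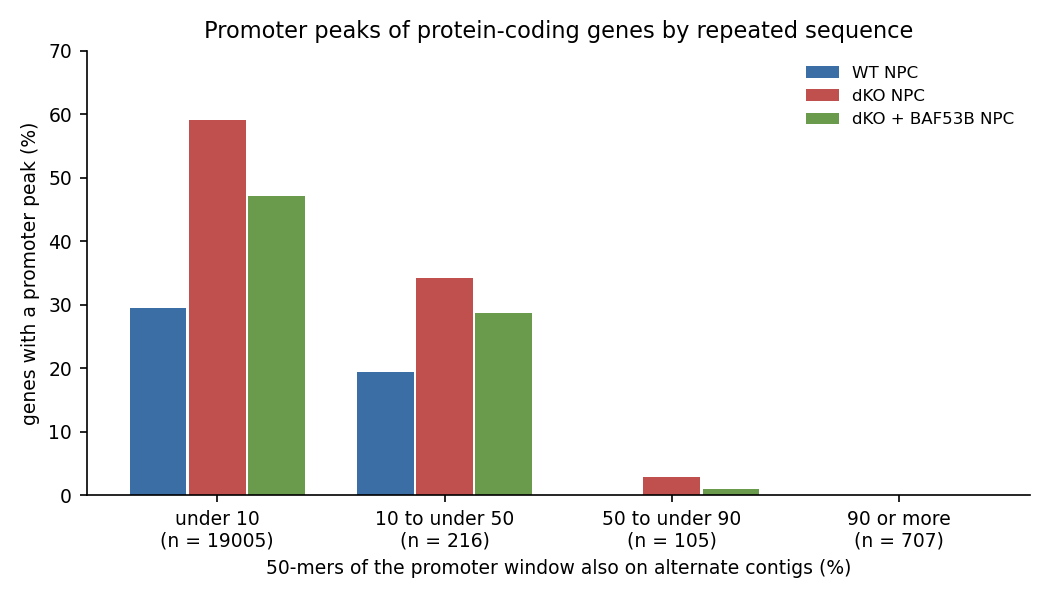
Percent of protein-coding genes with a promoter peak (vertical axis) in each list, by the percent of 50-base stretches of the promoter window that also occur on alternate contigs. Bars are near 0 in all 3 lists for genes at 50% or more, the class that holds *MICA* and *MICB*; the *ULBP* and *RAET1* genes are in the first class.

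The genes with the pattern most like *ULBP2* were those closest to it in log2 fold over both lists that called it, among the 34 genes with that pattern. The nearest was *OR52N2*, an olfactory receptor gene, at a distance of 0.08 on the log2 scale (fold 5.04 in WT and 4.52 with BAF53B). *STMN4*, a stathmin family gene of neurons, followed at 0.23 (4.26 and 4.11), then *ERCC3*, a helicase of transcription and DNA repair, at 0.26 (4.15 and 4.20), *RHOJ*, a small GTPase, at 0.31 (4.48 and 3.54), and *GLYATL1*, a glycine acyltransferase gene, at 0.34 (4.14 and 3.69). *GLYATL2* shares the peak of *GLYATL1*. Within the 34 genes *ULBP2* ranked 2 by fold in WT and 6 with BAF53B, where the medians were 3.62 and 3.61. In 17 of the 34 the fold was higher with BAF53B than in WT, so the pattern as a whole had no common direction between these lists, and *ULBP2* was among those lower with BAF53B.

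**Figure D5:**
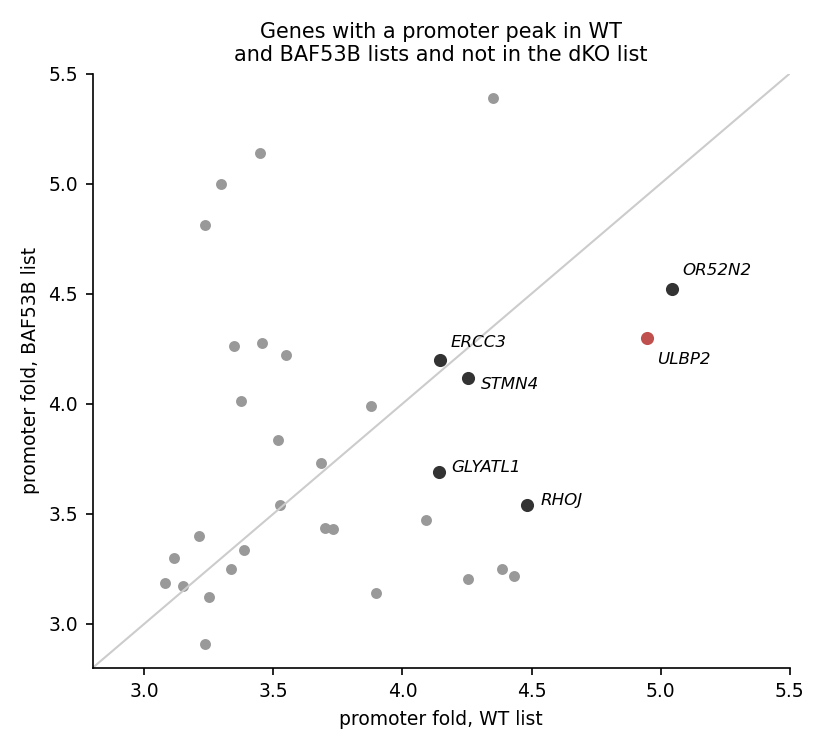
Promoter fold in the BAF53B list (vertical axis) against that in the WT list (horizontal axis) for the 34 genes with a promoter peak in these lists and not in dKO, with the line of equal values; genes that share a peak, such as *GLYATL1* and *GLYATL2*, share a point. *ULBP2* lies at 4.95 and 4.30, next to *OR52N2*.

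The other genes of the pathway were taken from a list of 45, and their folds are given as listed, without an interval. A promoter peak was called at 18 of them in WT (40.0%, against 28.2% of all coding genes), 23 in dKO (51.1%, against 56.4%) and 25 with BAF53B (55.6%, against 45.0%). Of the 45, 10 lie in the peak-free stretch around the MIC genes, and the calls all fell among the other 35. Among coding genes with under 50% of the window on alternate contigs the shares were 29.4%, 58.8% and 46.9%. With the 10 genes left out, the dKO share was thus above, not below, that of all coding genes. None of the 45 had the pattern of *ULBP2*, which 0.170% of all genes had, too small a share for its absence to set the 45 apart. The 18 genes called in WT were called in all 3 lists, as were 5363 of the 5656 coding genes called in WT. The pattern of *RAET1G* was found at 4 (16.2% of all genes) and that of *ULBP1* and *ULBP3* at 1 (12.4%). These 5 genes called in dKO and not in WT were the checkpoint kinase gene *CHEK1*, the NF-kB genes *NFKB1* and *RELA*, the peptidase gene *ERAP1* and *PVR*, the gene of a ligand of the NK receptor DNAM-1. The first 4 were called with BAF53B too, like *RAET1G*, whereas *PVR* (fold 3.26) was called in dKO alone, like *ULBP1* and *ULBP3*.

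On the side of the receptor, *KLRK1*, which encodes NKG2D, had no peak, and *HCST*, the gene of its adaptor DAP10, was called with BAF53B alone (2.92). Of the genes that release ligands from the cell surface, the proteases *ADAM10* (6.42 in WT, 7.65 in dKO, 5.44 with BAF53B) and *ADAM17* (3.96, 6.54, 4.76) were called in all 3 lists, and *MMP14* and *PDIA6* in none.

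The DNA damage kinases act upstream of ligand expression. *ATM* had a fold of 3.50 in WT, 8.21 in dKO and 6.51 with BAF53B, *CHEK2* 4.82, 8.70 and 7.64, and *ATR* 3.60, 4.14 and 3.67. *CHEK1* was called in dKO (4.34) and with BAF53B (3.49). All 4 had their highest fold in dKO, as did 16 of the 18 pathway genes called in all 3 lists and 80.6% of the 5363 coding genes so called.

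Of 9 stress and transcription regulators of the ligands, 7 were called in WT and 9 in each of the other lists. *ATF4*, the factor of the integrated stress response, had 4.13, 6.40 and 4.14 in WT, dKO and BAF53B, *HSF1*, of the heat shock response, 3.15, 4.16 and 3.31, and *SP1*, which binds GC boxes, 5.66, 8.76 and 6.04. *E2F1*, *MYC* and *XBP1* were also called in all 3 lists. Among 5 genes that act on ligand RNA or protein, *RBM4* had 6.29, 10.9 and 7.56, and *HNRNPC*, *DICER1* and *MARCHF9* were called throughout, while *MARCHF4* was called with BAF53B alone (2.82).

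Of 8 genes of ligands of other NK receptors, 2 were called in WT and 3 in each of the other lists. *NECTIN2*, a ligand of DNAM-1, had 3.69, 3.54 and 3.99, and *VIM* 3.14, 2.88 and 3.76, both lowest in dKO. *NCR3LG1*, the gene of the NKp30 ligand B7-H6, was called with BAF53B alone (3.57). In antigen presentation 0 of 13 genes were called in WT and 1 in each of the other lists (*ERAP1*, 3.01 in dKO and 3.29 with BAF53B). Of these 13 genes, 9 lie in the peak-free stretch around the MIC genes, where for example *HLA-B*, *TAP1*, *TAP2* and *TAPBP* give no reading, as does *BAG6* among the ligands. *B2M*, *CIITA* and *NLRC5* lie elsewhere and had no peak either.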

How the data were processed

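ATAC-seq libraries of 6 samples were made by the authors, who trimmed adaptors with cutadapt 1.13, aligned reads to hg38 with Bowtie2 2.2.5, took out duplicates with SAMtools 1.3.1 and Picard 1.90 and used MACS2 for peak calling. The calling options, the read length, the contigs of the alignment reference and the treatment of reads with several places are not given in the sources used here. Per the labels, both replicates of a group share 1 list. The deposited columns used were the fold, a ratio of the pileup to the local background with a pseudocount of 1, and the −log10 p and −log10 q. The deposited integer score and the summit offset, an other column, were read only to check the lists and to place summits.

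From fold and −log10 p, whole pileups were solved with scipy 1.17.1 (tolerance 0.001) for 99.9% of WT, 100.0% of dKO and 100.0% of BAF53B peaks. On simulated data 100.0% of 5000 pileups and 100.0% of 2000 gene starts were right. Genome backgrounds of 6.33 to 6.81 fragments mean that a call needed at least 25 fragments. Promoters were 3 kb on each side of GENCODE 44 starts, with an overlap of 1 bp. Python 3.11.15, numpy 2.4.6, pandas 2.3.3, pysam 0.24.0, biopython 1.88 and matplotlib 3.10.9 were used. Motifs were matched exactly on both strands. RefSeq and GENCODE starts were the same except for *MICA* and *MICB*.

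The members, the lists and the settings were chosen with earlier results of these data known, and the comparison with alternate contigs was added after the data had been seen. Named genes were the members, the pathway list, the nearest genes of the MIC genes, the NPC markers and the 5 genes most like *ULBP2*. *RAET1K* and *LRP11* were named because a peak of the cluster lay at their start. Protein sequences were not used here, and some genes of the pathway list enter its counts but are not reported here singly. Each count was repeated with a minimum −log10 q of 10, with equally long lists, with windows of 1 kb and 5 kb, all transcript starts or the summit inside the window, and where they apply with flanks of 10 kb and 100 kb, stretches of 36 and 75 bases, and the pileup over the genome background.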

Additional observations from a re-analysis of the deposited data

How the results depend on the processing

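*ULBP2* was the only member called in WT and with BAF53B and not in dKO under all 6 alternatives for calls. The absence in dKO could hardly change under these alternatives. Stricter calls add no peak, and the nearest dKO summit lay 18.8 kb from the *ULBP2* start. This contrast had also served to choose the family. At a −log10 q of at least 10 the members called in dKO fell to 1 (*ULBP3*), as did those called in dKO and not in WT (1), the pathway genes to 7 in WT and 16 with BAF53B, and the cluster to 1 peak for WT, 3 for dKO and 3 for BAF53B. At equal list length (−log10 q of at least 14.7 in dKO and 9.20 with BAF53B) dKO had 1 member, 1 member not in WT and 3 cluster peaks, and pathway genes with BAF53B were 16. A flank of 10 kb left 3 cluster peaks with BAF53B. Stretches of 36 and 75 bases gave 98.96% and 97.41% of the MIC windows on alternate contigs and 15.86% and 6.212% of the cluster windows repeated. With genes of at least 50% on alternate contigs left out, an alternative chosen after seeing the data, the 6 remaining members and 34 pathway genes gave the same counts as before. The other 63 of 79 alternatives moved no value by over its limit. Depth limits the calls, as the fragments needed lay inside the counting interval of the scaled peak for *ULBP1* in WT and with BAF53B, for *RAET1G* in WT when scaled from dKO, and for *ULBP2* in dKO when scaled from BAF53B or at the background of its neighbours. In the other cases the need lay below such an interval. These intervals leave out the counting error of the list without a call, so no absence is shown beyond counting error. No paired analysis was possible because the columns of a list carry no replicate number, and for the same reason no replicate was left out.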
